A study of Arabidopsis thaliana with 24 samples.

Results

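The Aux/IAA repressor genes and the auxin-conjugating GH3 genes of Arabidopsis thaliana were followed across 8 groups of shoot libraries. The members were taken by locus identifier: 28 Aux/IAA genes and the 7 genes GH3.1 to GH3.6 and GH3.17, so 35 of the 33602 loci in the count table. All 35 were found, and 30 of them held enough counts to be tested. RNA was sequenced from whole shoots of 3-week-old seedlings in the ecotype Columbia-0. The genotypes were the double mutant cat2shr, the SHORT-ROOT mutant shr, the catalase mutant cat2 and the wild type Col-0, each sampled after 24 h of photorespiratory stress and at 0 h, with 3 libraries per group and 24 in all. The sources used here give neither the alleles nor the number of plants behind a library. Per the labels, all plants were raised for 21 days at 21 °C on plates containing 1% sucrose, with daily cycles of 16 h of light at 100 µmol m-2 s-1 and 8 h of darkness. The stress consisted of sealing the plates with Parafilm, which restricts gas exchange, and of continuous light. No group of 24 h without this treatment was analysed here, so time, light and sealing cannot be told apart.

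Auxin acts by removing repressors. The hormone joins an F-box receptor of the TIR1/AFB family to a short degron in an Aux/IAA protein, the Aux/IAA protein is destroyed, and the auxin response factors (ARFs) that it held in check can activate genes. Many Aux/IAA and GH3 genes are themselves switched on by this pathway, and GH3 enzymes join free auxin to amino acids, so both families damp the signal that induces them. CAT2 is the main leaf catalase, which removes the hydrogen peroxide of photorespiration, and SHORT-ROOT (SHR) is a mobile transcription factor best known from the root stele and endodermis, which also acts in shoot tissues.

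The degron core of an Aux/IAA protein reads Gly-Trp-Pro-Pro. A search of the RefSeq coding sequences of the TAIR10.1 assembly, matched by locus, found these 4 residues in a row in 22 of the 28 Aux/IAA members and not in IAA20, IAA30, IAA31, IAA32, IAA33 and IAA34. The coding stretch around the core is shown for 6 genes whose calls differ in the results that follow. IAA3, IAA6 and IAA19 fell in every genotype, and IAA29 was low in all 3 mutants. IAA16 and IAA18 were called higher under stress in all genotypes but shr, although their shr and Col-0 responses were not called different. Each line is the coding strand from 5′ to 3′, with the 4 core codons in capitals. The stretches of IAA6 (chr1:19673314-19673361, minus strand), IAA18 (chr1:19306222-19306269, plus strand), IAA19 (chr3:5264298-5264345, plus strand) and IAA29 (chr4:15583933-15583980, plus strand) each lie in a single exon. Those of IAA3 (chr1:1129010-1129139, minus strand) and IAA16 (chr3:1289721-1290217, minus strand) are spliced across an intron.
IAA3: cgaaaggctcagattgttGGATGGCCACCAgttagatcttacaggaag
IAA6: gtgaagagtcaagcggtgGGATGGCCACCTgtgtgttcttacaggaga
IAA19: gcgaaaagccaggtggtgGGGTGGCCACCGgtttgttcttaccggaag
IAA16: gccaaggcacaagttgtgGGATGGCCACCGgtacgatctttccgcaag
IAA18: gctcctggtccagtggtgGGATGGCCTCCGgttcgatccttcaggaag
IAA29: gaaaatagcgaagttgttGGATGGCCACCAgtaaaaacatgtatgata
All 6 stretches encode the same core, and where their core codons differ, they do so at the last base.

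ARFs bind auxin response elements, classically TGTCTC and, with higher affinity in vitro, TGTCGG. Both words were searched on both strands in the 250 bases before the annotated start of each gene. TGTCTC was present in 12 of the 35 members (34.3%), against 3004 of 27443 promoters of the same length (10.9%). TGTCGG was present in 6 members (17.1%), against 4.16% of all promoters. Either word was present in 16 members (45.7%), against 14.7% of all promoters, and no match in a member overlapped another. A match is a description of letters and not evidence of binding. Windows are printed for the 3 GH3 genes with the highest changes and for IAA19, which held the most TGTCTC matches, with TGTCTC in capitals. They lie at chr4:13653329-13653578 (plus strand) for GH3.5, chr2:9866563-9866812 (minus strand) for GH3.3, chr4:17579368-17579617 (plus strand) for GH3.2 and chr3:5263751-5264000 (plus strand) for IAA19.
GH3.5: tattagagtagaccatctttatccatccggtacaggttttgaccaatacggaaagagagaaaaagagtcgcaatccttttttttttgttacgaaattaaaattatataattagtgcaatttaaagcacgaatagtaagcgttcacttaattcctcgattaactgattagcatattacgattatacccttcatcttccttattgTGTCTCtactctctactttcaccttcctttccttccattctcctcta
GH3.3: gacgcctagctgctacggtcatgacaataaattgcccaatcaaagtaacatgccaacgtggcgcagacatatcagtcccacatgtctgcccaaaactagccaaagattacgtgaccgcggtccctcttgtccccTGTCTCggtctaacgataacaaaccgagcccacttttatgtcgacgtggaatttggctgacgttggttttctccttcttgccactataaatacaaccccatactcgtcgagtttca
GH3.2: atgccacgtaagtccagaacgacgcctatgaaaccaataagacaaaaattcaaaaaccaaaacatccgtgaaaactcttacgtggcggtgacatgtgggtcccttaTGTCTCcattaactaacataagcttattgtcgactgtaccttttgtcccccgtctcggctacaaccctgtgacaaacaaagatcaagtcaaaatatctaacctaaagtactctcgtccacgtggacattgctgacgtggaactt
IAA19: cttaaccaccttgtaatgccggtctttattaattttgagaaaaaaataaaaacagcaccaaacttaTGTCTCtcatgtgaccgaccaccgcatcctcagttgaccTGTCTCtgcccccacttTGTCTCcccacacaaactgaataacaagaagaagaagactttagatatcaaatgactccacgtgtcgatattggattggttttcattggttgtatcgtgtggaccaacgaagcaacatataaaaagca
Each GH3 window holds 1 TGTCTC and the IAA19 window holds 3, although the 4 genes differed in how they changed, as given for each of them with its values.

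Total counts per library ranged from 26426603 to 40107051. CAT2 was reduced in cat2 against Col-0 (log2 -4.42 ± 0.34 at 0 h and -4.99 ± 0.34 at 24 h), and SHR was reduced in shr against Col-0 (log2 -3.25 ± 0.14 and -3.40 ± 0.15), with adjusted p from 3.99e-12 to 8.37e-10 for 3 of these 4 differences and 1.56e-07 for CAT2 at 0 h. Both genes were also low in cat2shr, so the 4 labels fitted the data. The transcript of the unmutated gene was reduced as well in each single mutant, by less. CAT2 differed between shr and Col-0 by log2 -0.84 ± 0.29 at 0 h and -1.23 ± 0.29 at 24 h (adjusted p = 0.0252 and 0.00184). SHR differed between cat2 and Col-0 by log2 -0.35 ± 0.12 and -0.53 ± 0.12 at these times (adjusted p = 0.0411 and 9.85e-04). Leaf markers were abundant in every library, with the summed level of 4 genes between 6147 and 22120 CPM (counts per 1000000 after TMM scaling). Most of the 10 root markers were at or near 0, with EXPA7, COBL9, SMB and PLT1 at 0.549 CPM or less, whereas PYK10 reached 189 CPM. Of the 10, 2 could be tested, and in every genotype CASP2 was called higher under stress and PYK10 lower. The CASP2 change was log2 3.37 ± 0.79 in cat2shr, 2.56 ± 0.62 in cat2 and 3.56 ± 0.65 in Col-0, and in shr it was over 2-fold. All 10 had at least 1 count in cat2 and shr at 0 h and in cat2shr at 24 h. The root marker sum, 54.59 to 190.2 CPM, stood far under the leaf marker sum, which fitted the shoot label. Whether libraries held traces of root was not tested. Shoot meristem markers summed to between 0.271 and 5.57 CPM, and WUS did not exceed 0.0737 CPM.

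Levels differed widely among the members. Expressed as mean CPM per kilobase of exon in the group where a gene was highest, the 22 Aux/IAA genes with the degron core reached 2.12 to 187 (median 15.2). The 6 without it reached 0.0235 to 0.952 (median 0.391), so the level ranges of the gene classes did not overlap. The 7 GH3 genes reached 0 to 19.2 (median 6.62). IAA16 was highest, at 187 CPM per kilobase in cat2shr at 24 h, followed by IAA8 at 130.5 in Col-0 at 0 h, IAA9 at 106 in shr at 24 h and IAA7 at 103 in Col-0 at 24 h. Col-0 held the highest group mean of 11 members at 0 h and of 8 members at 24 h, out of the 34 members with any count. The same count was not made over all genes, so it is not a result particular to the members.

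**Figure D1:**
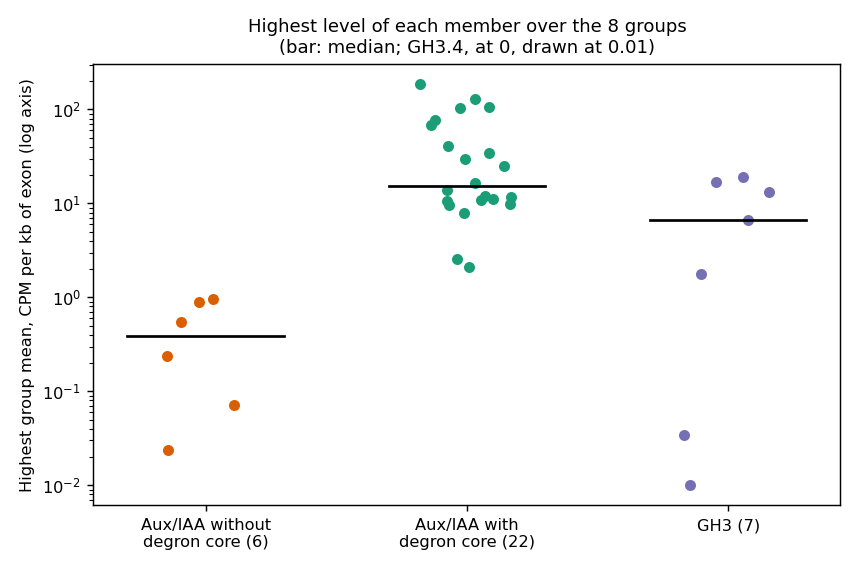
Highest group mean of each member in CPM per kilobase of exon on a log axis, for Aux/IAA genes without the degron core, Aux/IAA genes with it, and GH3 genes, with a bar at the median. The 6 genes without the core lie at or under 0.952 and the 22 with it at or above 2.12, and GH3.4, at 0, is drawn at 0.01.

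The 5 members left out of the tests were IAA20, IAA31, IAA33, GH3.1 and GH3.4. IAA20 was highest in cat2 at 24 h with 0.241, 0.171 and 0.285 CPM, and it had no count in cat2shr at 0 h. IAA31, IAA33 and GH3.1 had group means of at most 0.0636, 0.0179 and 0.0773 CPM. GH3.4 had 0 counts in all 24 libraries, which allows a level of up to 0.00406 CPM over the libraries together, counting error only. Exons of IAA3, IAA10, IAA13 and IAA32 overlapped a gene on the other strand by 376 to 826 bases in the RefSeq annotation, IAA5, IAA9, IAA11 and IAA27 by 12 to 48 bases, and IAA34 overlapped a gene on its own strand by 156 bases. The sources used here do not give the strand setting of the counting, so the counts of these 9 genes are less certain.

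Photorespiratory stress changed most of the tested members in every genotype but shr, as it did most of all tested genes. In cat2shr 6 of 30 members rose and 13 fell, where 32.7% of all 20347 tested genes rose and 31.7% fell (64.4% together). In shr 9 members fell, where 20.4% of all genes rose and 20.9% fell (41.3% together). No member rose in shr in the main edgeR fit or by DESeq2, and 1 was higher at an unadjusted p under 0.05. In edgeR fits with scaling by library size only, with a replicate block or with only the groups compared, 1 member was called higher. In cat2 8 members rose and 12 fell (38.7% and 36.3% of all genes, 75% together), and in Col-0 10 rose and 11 fell (29.7% and 29.6%, 59.3% together). Calls were made with edgeR's quasi-likelihood test where the p adjusted by Benjamini-Hochberg over all tested genes was under 0.05, and a value after ± is the standard error beside a log2 change. The median log2 change over the tested members was -0.30 in cat2shr, -0.20 in shr, -0.22 in cat2 and 0.04 in Col-0, where the medians of all genes lay between -0.02 and 0.03. Measured against these backgrounds, the shares of members that fell (43.3%, 30%, 40% and 36.7% in that order) were somewhat above those of all genes and the shares that rose were below them in the 3 mutants. In whole shoots, fewer cells of a type and less RNA per cell cannot be told apart in any of these results.

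**Figure D2:**
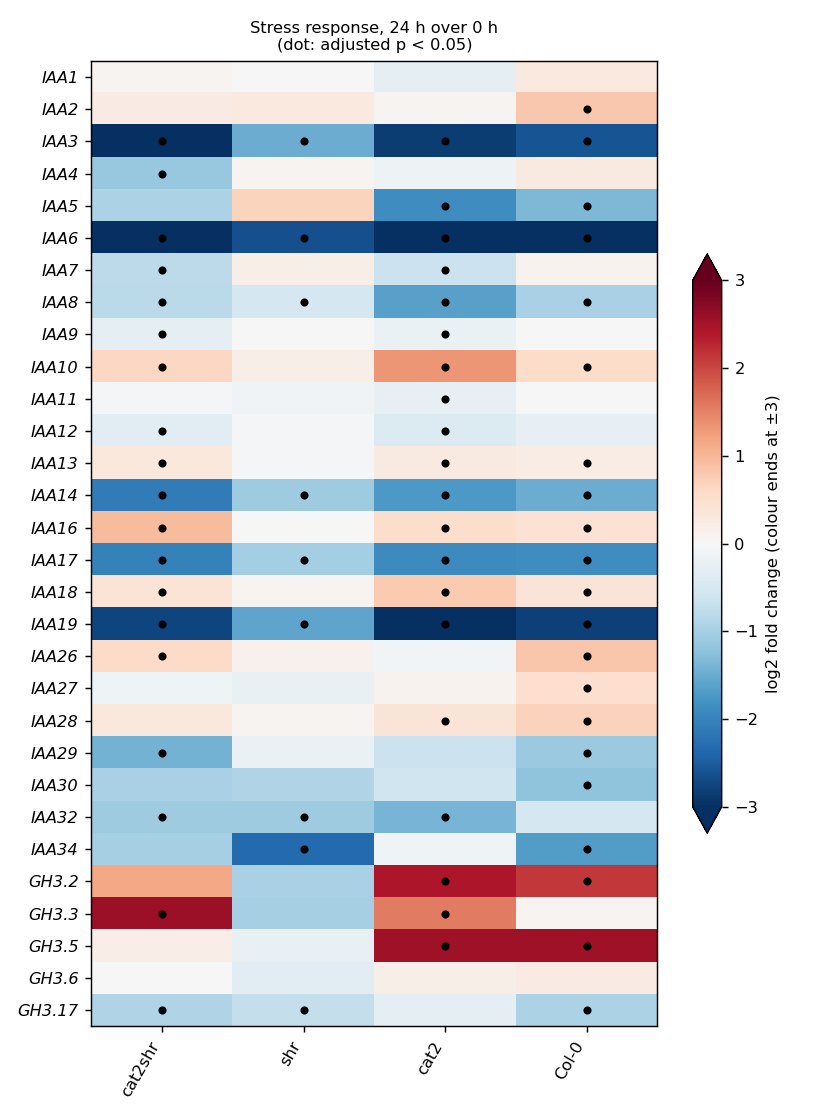
Log2 change of 24 h over 0 h for the 30 tested members in cat2shr, shr, cat2 and Col-0, with colour ending at 3 in either direction and a dot where the adjusted p was under 0.05. IAA3, IAA6, IAA8, IAA14, IAA17 and IAA19 carry a dot and a lower value in all 4 columns, and the shr column has no dot on a higher value.

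Among Aux/IAA genes, 6 fell in all 4 genotypes. IAA19 (AT3G15540), a repressor known from hypocotyl growth and tropic bending, measured 0.318, 0.471 and 0.536 CPM in cat2shr at 24 h, against 3.21, 2.72 and 2.99 CPM at 0 h. In shr it measured 1.6, 1.78 and 1.77 CPM at 24 h, against 4.89, 4.95 and 5.54 CPM at 0 h. The times did not overlap in either mutant, and the 24 h levels of shr stood above those of cat2shr. In cat2 IAA19 measured 0.517, 0.717 and 0.855 CPM at 24 h, against 7.95, 6.74 and 7.32 CPM at 0 h. The Col-0 libraries had 1.77, 1.32 and 1.12 CPM at 24 h, against 9.72, 10.1 and 9.54 CPM at 0 h. The log2 changes were -2.74 ± 0.19, -1.58 ± 0.16, -3.38 ± 0.18 and -2.79 ± 0.17 in cat2shr, shr, cat2 and Col-0 (adjusted p between 4.52e-12 and 5.30e-07). Compared with Col-0, shr had a smaller fall (difference 1.22 ± 0.23, adjusted p = 9.07e-04), and the fall in cat2shr was larger than that in shr (difference -1.17 ± 0.25, adjusted p = 0.00156).

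IAA8 (AT2G22670), one of the most abundant members, also fell everywhere but by different amounts. It measured 104, 100 and 105 CPM in cat2shr at 24 h, against 178, 183 and 179 CPM at 0 h. In shr it measured 122, 124 and 131 CPM at 24 h, against 189, 178 and 175 CPM at 0 h. Its libraries were close together within each group. In cat2 IAA8 measured 77.6, 71.4 and 85.2 CPM at 24 h, against 243, 243 and 234 CPM at 0 h. The Col-0 libraries had 136, 134 and 140 CPM at 24 h, against 270, 271 and 265 CPM at 0 h. The log2 changes were -0.80 ± 0.06 in cat2shr, -0.52 ± 0.06 in shr, -1.62 ± 0.06 in cat2 and -0.98 ± 0.06 in Col-0. The fall was larger in cat2 than in Col-0 (difference -0.64 ± 0.08, adjusted p = 4.19e-06) and smaller in cat2shr than in cat2 (difference 0.82 ± 0.08, adjusted p = 5.18e-07). It was also smaller in shr than in Col-0 (difference 0.45 ± 0.08, adjusted p = 4.97e-04), and larger in cat2shr than in shr (difference -0.28 ± 0.08, adjusted p = 0.00988). IAA8 was called in 15 of the 17 comparisons, more than any other member, followed by IAA19 with 13 and IAA14 with 12.

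IAA14 and IAA17 both had their lowest mean in cat2shr after stress, although for IAA17 the cat2shr and cat2 libraries overlapped at 24 h. IAA14 (AT4G14550), known as SOLITARY-ROOT and a repressor of lateral root formation, measured 1.91, 2.00 and 1.34 CPM in cat2shr at 24 h, against 8.66, 7.36 and 6.32 CPM at 0 h (log2 -2.09 ± 0.18, adjusted p = 8.97e-09). It measured 4.98, 7.10 and 5.41 CPM in shr at 24 h, against 14.0, 13.0 and 9.56 CPM at 0 h (log2 -1.06 ± 0.16, adjusted p = 3.77e-05). In cat2 its change was -1.73 ± 0.17 and in Col-0 it was -1.48 ± 0.16. The fall in cat2shr was larger than that in shr (difference -1.03 ± 0.24, adjusted p = 0.00258). IAA17 (AT1G04250), known as AXR3, measured 1.83, 2.56 and 2.73 CPM in cat2shr at 24 h, against 10.6, 8.95 and 9.58 CPM at 0 h (log2 -2.03 ± 0.18). It measured 6.97, 6.79 and 6.17 CPM in shr at 24 h, against 14.4, 16.1 and 10.2 CPM at 0 h (log2 -1.03 ± 0.17). Both genes kept their highest 24 h levels outside the lines that carry cat2. IAA17 fell by 1.92 ± 0.18 on the log2 scale in cat2 and by 1.85 ± 0.17 in Col-0. Its fall was smaller in shr than in Col-0 (difference 0.82 ± 0.24, adjusted p = 0.0161), a call lost without Col-0 24 h replicate 2 (adjusted p = 0.0536), and larger in cat2shr than in shr (difference -1.0 ± 0.24, adjusted p = 0.00369).

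IAA3 (AT1G04240), known as SHY2 and the neighbour of IAA17 at a distance of 6388 bases, fell in parallel. It measured 2.81, 3.29 and 3.22 CPM in cat2shr at 24 h, against 40.3, 20.3 and 23.9 CPM at 0 h. In shr it measured 13.6, 14.8 and 10.8 CPM at 24 h, against 47.7, 32.4 and 30.2 CPM at 0 h. All 24 h libraries lay below all 0 h libraries in both mutants, and the first replicate was high at 0 h in both. In cat2 IAA3 measured 3.31, 2.66 and 5.50 CPM at 24 h, against 33.2, 24.7 and 25.1 CPM at 0 h, and in Col-0 9.14, 7.05 and 7.31 CPM, against 49.7, 47.3 and 44.2 CPM. The log2 changes were -3.18 ± 0.28, -1.49 ± 0.25, -2.84 ± 0.27 and -2.59 ± 0.26 in cat2shr, shr, cat2 and Col-0. The fall in cat2shr was larger than in shr (difference -1.69 ± 0.36, adjusted p = 0.00168).
IAA6 (AT1G52830), a low-abundance member, was close to 0 after stress. It had 1 count over the 3 cat2 libraries at 24 h, a ratio of 0.00943 to 0 h with a 95% counting interval of 2.37e-04 to 0.0537, and 2 counts in cat2shr, a ratio of 0.0196 with an interval of 0.00233 to 0.073. It measured 0.293, 0.274 and 0.127 CPM in shr at 24 h, against 1.39, 1.56 and 1.38 CPM at 0 h, and 0.147, 0.232 and 0.0402 CPM in Col-0, against 1.48, 1.44 and 2.52 CPM. These levels rest on few reads, since 3 counts in a library were worth 0.0781 to 0.12 CPM.

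**Figure D3:**
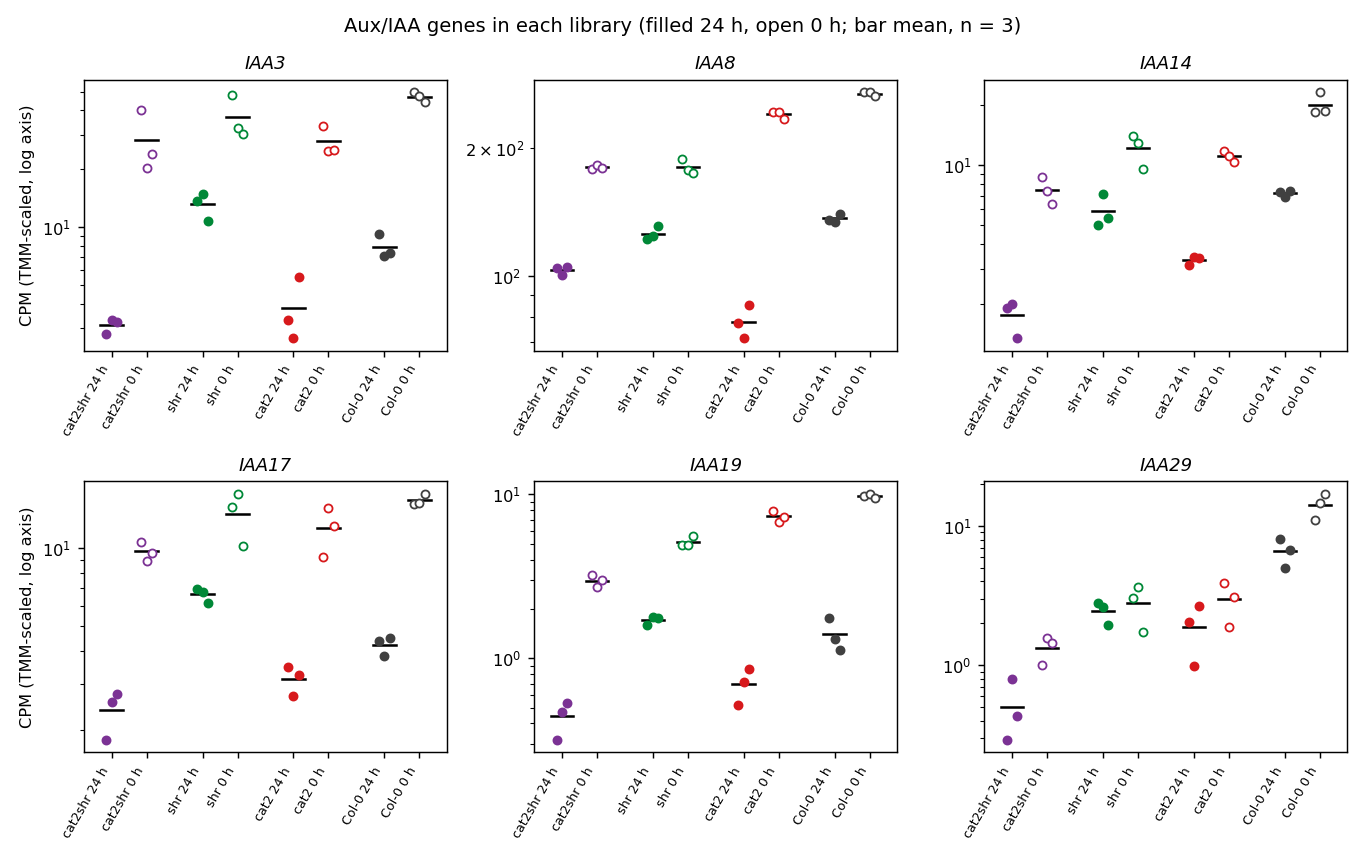
CPM on a log axis of IAA3, IAA8, IAA14, IAA17, IAA19 and IAA29 in each of the 24 libraries, at 24 h (filled) and 0 h (open) in cat2shr, shr, cat2 and Col-0, with a bar at the mean of 3 libraries. For the first 5 genes the 24 h points of a genotype lie below its 0 h points, and for IAA29 every mutant library lies below every Col-0 library of the same time.

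A second group of Aux/IAA genes rose under stress, and none of it was called in shr. This is a difference in calls, since only for IAA26 and IAA27 of this group was the shr response called different from that of Col-0. IAA10, IAA13, IAA16 and IAA18 rose in cat2shr, cat2 and Col-0. IAA16 (AT3G04730), the most abundant member per length, measured 373, 419 and 345 CPM in cat2shr at 24 h, against 173, 216 and 198 CPM at 0 h (log2 0.95 ± 0.11, adjusted p = 5.39e-07). The shr libraries had 184, 189 and 167 CPM at 24 h, against 193, 179 and 162 CPM at 0 h (log2 0.02 ± 0.11, adjusted p = 0.922). The times overlapped in shr and stood apart in cat2shr, and this difference between the responses was called (0.94 ± 0.16, adjusted p = 2.68e-04). In cat2 IAA16 measured 353, 334 and 314 CPM at 24 h, against 223, 251 and 221 CPM at 0 h (log2 0.53 ± 0.11), and in Col-0 236, 337 and 258 CPM, against 198, 203 and 212 CPM (log2 0.44 ± 0.11). The changes in shr and in Col-0 were not called different from each other.

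IAA10 (AT1G04100) had its strongest rise in cat2. It measured 12.0, 14.9 and 12.1 CPM in cat2 at 24 h, against 5.23, 5.53 and 4.67 CPM at 0 h (log2 1.34 ± 0.14, adjusted p = 2.91e-08). In Col-0 it measured 6.49, 7.09 and 6.83 CPM at 24 h, against 3.78, 5.19 and 4.96 CPM at 0 h (log2 0.55 ± 0.14, adjusted p = 0.00206). The rise in cat2 exceeded that in Col-0 (difference 0.78 ± 0.19, adjusted p = 0.00342). In cat2shr IAA10 measured 6.56, 6.76 and 6.62 CPM at 24 h, against 3.96, 4.67 and 4.36 CPM at 0 h (log2 0.62 ± 0.14), a smaller rise than in cat2 (difference -0.72 ± 0.19, adjusted p = 0.00834). The cat2 libraries at 24 h were thus the only group above 10 CPM. IAA18 (AT1G51950) measured 75.8, 82.3 and 62.4 CPM in cat2 at 24 h, against 43.5, 45.9 and 39.1 CPM at 0 h (log2 0.78 ± 0.14, adjusted p = 5.31e-05). Its rise in cat2shr (log2 0.41 ± 0.14, adjusted p = 0.0162) was lost without cat2shr 0 h replicate 3 or without cat2shr 24 h replicate 2, with adjusted p up to 0.145 over all alternatives. IAA13 changed little, by 0.32 ± 0.08 in cat2shr, 0.27 ± 0.08 in cat2 and 0.23 ± 0.08 in Col-0 on the log2 scale, and the cat2 call was lost without cat2 0 h replicate 3.

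IAA26 (AT3G16500), also named PAP1, rose in cat2shr and Col-0 but not detectably in cat2. It measured 43.9, 47.9 and 43.3 CPM in cat2shr at 24 h, against 23.4, 30.6 and 37.4 CPM at 0 h (log2 0.56 ± 0.14, adjusted p = 0.00132). The cat2 libraries had 40.1, 34.1 and 43.6 CPM at 24 h, against 37.7, 44.5 and 42.6 CPM at 0 h (log2 -0.08 ± 0.14, adjusted p = 0.593). In Col-0 it measured 59.0, 49.6 and 48.0 CPM at 24 h, against 27.5, 30.8 and 30.3 CPM at 0 h (log2 0.82 ± 0.14, adjusted p = 4.16e-05). The cat2 libraries were already high at 0 h, and their times overlapped. The cat2 response differed from the Col-0 response (-0.90 ± 0.19, adjusted p = 0.00109), and so did the shr response (-0.69 ± 0.19, adjusted p = 0.0131). IAA26 had the smallest p of the members in the three-way interaction, the test of whether the effect of shr on the stress response differs between the cat2 and the CAT2 backgrounds (log2 1.34 ± 0.27, adjusted p = 0.00313). IAA16 and IAA8 were also higher there (0.85 ± 0.23 and 0.36 ± 0.11, adjusted p = 0.0164 and 0.0383), and IAA4 was lower (-0.81 ± 0.24, adjusted p = 0.0314), so the term was positive for 3 members and negative for 1, beside 6.84% and 6.9% of all genes (13.7% together). The IAA4 call was lost in 15 of 24 fits without 1 library, with adjusted p up to 0.0830, and that of IAA8 without cat2 24 h replicate 1 or without cat2 24 h replicate 2. The 15 libraries for IAA4 were Col-0 0 h replicates 2 and 3, cat2 0 h replicates 1, 2 and 3, shr 0 h replicates 2 and 3, cat2shr 0 h replicates 1 and 3, Col-0 24 h replicates 1 and 2, shr 24 h replicates 1 and 2, and cat2shr 24 h replicates 1 and 3.

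The other Aux/IAA genes that rose did so in Col-0. IAA2 (AT3G23030), a widely used early auxin response gene, measured 109, 108 and 97.6 CPM in Col-0 at 24 h, against 50.6, 59.7 and 70.4 CPM at 0 h (log2 0.80 ± 0.14, adjusted p = 4.94e-05). The cat2 libraries had 74.5, 68.4 and 83.1 CPM at 24 h, against 72.1, 75.4 and 64.4 CPM at 0 h, and the response was smaller than in Col-0 (difference -0.71 ± 0.19, adjusted p = 0.00662). The Col-0 times stood apart and the cat2 times overlapped. IAA27 (AT4G29080), also named PAP2, measured 26, 20.2 and 24.7 CPM in Col-0 at 24 h, against 18.5, 16.7 and 14.7 CPM at 0 h (log2 0.51 ± 0.16, adjusted p = 0.0117). IAA28 (AT5G25890), a repressor of lateral root formation, rose by 0.69 ± 0.16 on the log2 scale in Col-0 (adjusted p = 0.00123). In cat2 it rose by 0.38 ± 0.17 (adjusted p = 0.045), a call lost in 5 of 6 fits without 1 library, namely cat2 0 h replicates 1, 2 and 3 and cat2 24 h replicates 2 and 3, with adjusted p up to 0.215 over the alternatives.

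Other Aux/IAA genes fell in some genotypes only. IAA7 (AT3G23050), known as AXR2, measured 69.0, 64.5 and 73.2 CPM in cat2shr at 24 h, against 110, 115 and 131 CPM at 0 h (log2 -0.78 ± 0.10, adjusted p = 1.42e-06). In cat2 it measured 96.6, 90.7 and 100 CPM at 24 h, against 142, 144 and 165 CPM at 0 h (log2 -0.65 ± 0.10, adjusted p = 7.88e-06). The Col-0 libraries had 189, 190 and 213 CPM at 24 h, against 162, 168 and 218 CPM at 0 h, which overlapped. The cat2 response was below that of Col-0 (difference -0.76 ± 0.14, adjusted p = 2.98e-04), and the cat2shr response was below that of shr (difference -0.96 ± 0.14, adjusted p = 9.40e-05). IAA4 (AT5G43700) measured 24.4, 26.4 and 24.1 CPM in cat2shr at 24 h, against 57.3, 51.8 and 54.3 CPM at 0 h (log2 -1.13 ± 0.12, adjusted p = 2.03e-07). It was called in no other stress response, and the cat2shr response was below that of shr (difference -1.21 ± 0.17, adjusted p = 7.02e-05) and that of cat2 (difference -0.99 ± 0.17, adjusted p = 2.78e-04). Small falls were called for IAA9 (-0.26 ± 0.07 in cat2shr, -0.20 ± 0.07 in cat2), IAA12 (-0.33 ± 0.13 and -0.41 ± 0.13) and, in cat2 alone, IAA11 (-0.24 ± 0.10). The calls for IAA11 and IAA12 were lost without single libraries: in cat2 without cat2 24 h replicate 1 for both and also without cat2 24 h replicate 2 or cat2 0 h replicate 1 for IAA11, in cat2shr without cat2shr 0 h replicate 1, cat2shr 24 h replicate 1 or cat2shr 24 h replicate 2. That for IAA9 in cat2 was lost without cat2 24 h replicate 2.

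Low-abundance members filled the rest of the group that fell. IAA5 (AT1G15580) measured 0.344, 0.0342 and 0.712 CPM in cat2 at 24 h, against 1.31, 1.42 and 1.44 CPM at 0 h (log2 -1.87 ± 0.44, adjusted p = 6.78e-04). It measured 0.701, 0.658 and 1.00 CPM in Col-0 at 24 h, against 1.42, 2.1 and 2.52 CPM at 0 h (log2 -1.35 ± 0.40, adjusted p = 0.00703). In shr the same gene measured 1.17, 1.58 and 1.42 CPM at 24 h, against 0.849, 0.937 and 0.827 CPM at 0 h, a response that was not called by itself but differed from that of Col-0 (2.02 ± 0.56, adjusted p = 0.0126). In shr every 24 h library thus had more IAA5 than every 0 h library. IAA32 (AT2G01200), which lacks the degron core, fell in cat2shr, shr and cat2 (log2 -1.06 ± 0.32, -1.07 ± 0.31 and -1.40 ± 0.29). IAA34, which lacks it as well, had 3 counts over the shr libraries at 24 h, a ratio of 0.18 to 0 h with a counting interval of 0.0341 to 0.611, and it measured 0.442, 0.116 and 0.281 CPM in Col-0 at 24 h, against 0.807, 0.806 and 1.12 CPM at 0 h (log2 -1.68 ± 0.50). The IAA34 call in shr was lost in 5 of 6 fits without 1 library (all but shr 0 h replicate 3), and that in Col-0 without Col-0 24 h replicate 2. IAA30 (AT3G62100) fell in Col-0 (log2 -1.21 ± 0.45, adjusted p = 0.0267), a call lost without Col-0 0 h replicate 2, Col-0 0 h replicate 3, Col-0 24 h replicate 1 or Col-0 24 h replicate 2. IAA1 (AT4G14560) was called in no stress response, with changes between -0.26 and 0.29 on the log2 scale.

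The GH3 genes responded in ways that set the genotypes apart. GH3.5 (AT4G27260), an amido synthetase that conjugates auxin and also acts on salicylic acid, measured 13.5, 12.7 and 14.0 CPM in cat2shr at 24 h, against 8.98, 14.4 and 12.0 CPM at 0 h (log2 0.19 ± 0.20, adjusted p = 0.43). In shr it measured 8.27, 9.70 and 10.8 CPM at 24 h, against 7.67, 11.2 and 14.6 CPM at 0 h (log2 -0.23 ± 0.20, adjusted p = 0.398). The times overlapped in both lines that carry shr. The cat2 libraries had 44.8, 53.6 and 37.2 CPM at 24 h, against 9.39, 6.94 and 6.97 CPM at 0 h (log2 2.54 ± 0.21, adjusted p = 2.03e-09). In Col-0 it measured 34.2, 38.1 and 38.4 CPM at 24 h, against 7.62, 5.64 and 5.54 CPM at 0 h (log2 2.55 ± 0.21, adjusted p = 1.07e-08). Every 24 h library of cat2 and Col-0 stood above every other library of the 24. The shr response was below that of Col-0 (difference -2.78 ± 0.29, adjusted p = 5.14e-06), and the cat2shr response was below that of cat2 (difference -2.35 ± 0.29, adjusted p = 8.51e-06), both in every alternative and every fit without 1 library.

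**Figure D4:**
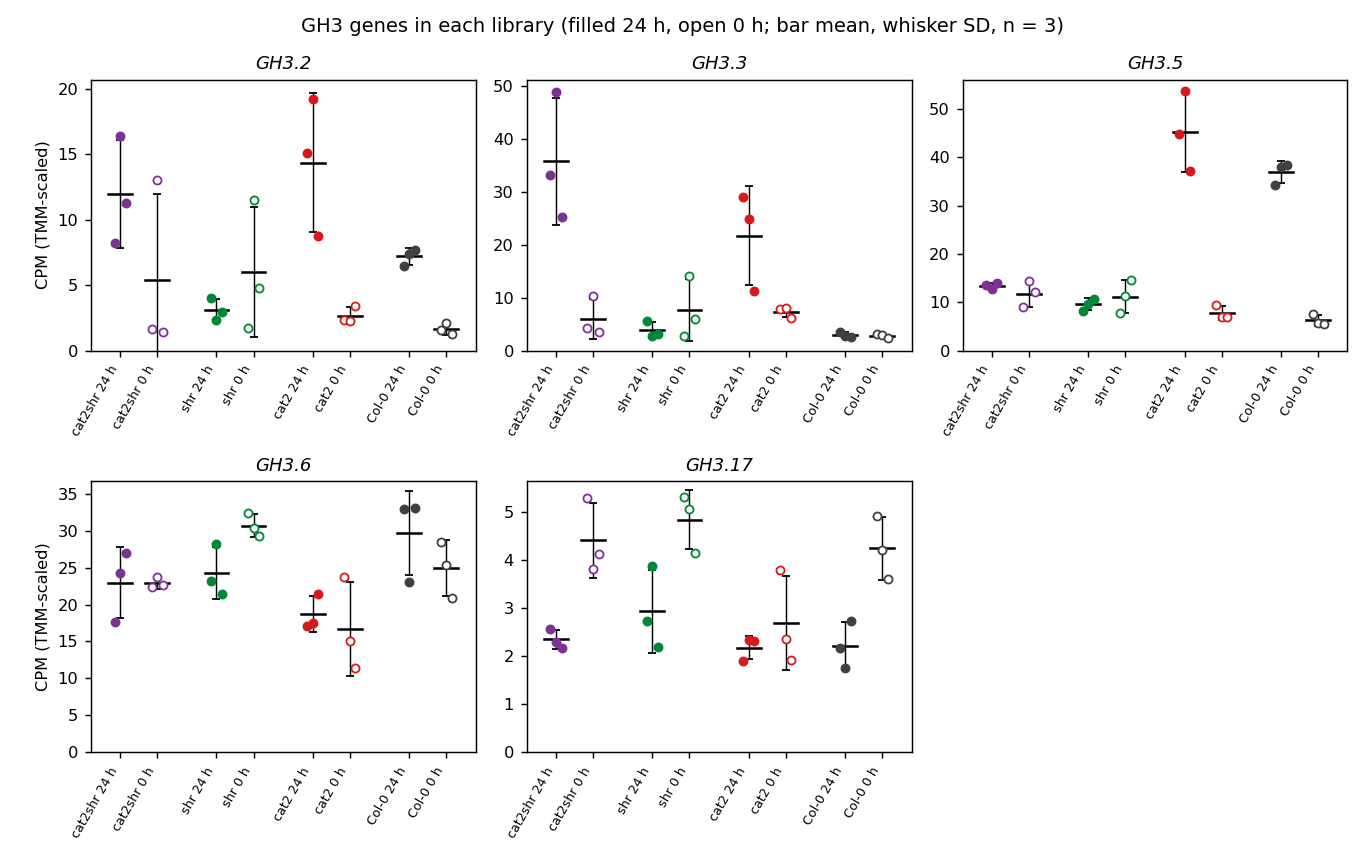
CPM of GH3.2, GH3.3, GH3.5, GH3.6 and GH3.17 in each of the 24 libraries, at 24 h (filled) and 0 h (open) in cat2shr, shr, cat2 and Col-0, with the mean and SD of 3 libraries. GH3.5 is above 34 CPM in cat2 and Col-0 at 24 h and at most 14.6 CPM elsewhere, whereas GH3.3 is highest in cat2shr and cat2 at 24 h.

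GH3.3 (AT2G23170), another auxin amido synthetase, followed the cat2 mutation instead. It measured 33.3, 48.9 and 25.3 CPM in cat2shr at 24 h, against 4.22, 10.4 and 3.5 CPM at 0 h (log2 2.57 ± 0.50, adjusted p = 2.17e-04). The shr libraries had 5.67, 2.74 and 3.16 CPM at 24 h, against 2.75, 14.1 and 6.03 CPM at 0 h (log2 -1.0 ± 0.51, adjusted p = 0.129). The 0 h libraries of shr were spread widely, and their range covered that at 24 h. In cat2 it measured 29.0, 25.0 and 11.2 CPM at 24 h, against 7.91, 7.99 and 6.14 CPM at 0 h (log2 1.56 ± 0.49, adjusted p = 0.00772), and in Col-0 3.5, 2.83 and 2.49 CPM, against 3.1, 2.94 and 2.33 CPM (log2 0.07 ± 0.57, adjusted p = 0.923). The cat2shr response exceeded that of shr (difference 3.57 ± 0.71, adjusted p = 0.00114). The cat2 response was not called different from that of Col-0.

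GH3.2 (AT4G37390) varied between libraries more than the others. It measured 15.1, 19.2 and 8.72 CPM in cat2 at 24 h, against 2.35, 2.22 and 3.39 CPM at 0 h (log2 2.43 ± 0.69, adjusted p = 0.00404). The Col-0 libraries had 6.49, 7.39 and 7.71 CPM at 24 h, against 1.58, 2.14 and 1.24 CPM at 0 h (log2 2.11 ± 0.73, adjusted p = 0.0192). The Col-0 call was lost without Col-0 0 h replicate 1 or without Col-0 0 h replicate 3, with adjusted p up to 0.0574. In cat2shr GH3.2 measured 8.26, 16.4 and 11.3 CPM at 24 h, against 1.65, 13.0 and 1.41 CPM at 0 h, where replicate 2 stood apart (log2 1.17 ± 0.65, adjusted p = 0.126). In shr it measured 4.04, 2.30 and 2.94 CPM at 24 h, against 1.73, 11.5 and 4.79 CPM at 0 h, again with replicate 2 highest. The shr response was below that of Col-0 (difference -3.08 ± 1.00, adjusted p = 0.0305), a call lost in 7 of 12 fits without 1 library, namely Col-0 0 h replicates 1 and 3, shr 0 h replicate 2, Col-0 24 h replicates 2 and 3, and shr 24 h replicates 2 and 3, with adjusted p up to 0.118.

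GH3.17 (AT1G28130) fell where it was called. It measured 2.57, 2.29 and 2.17 CPM in cat2shr at 24 h, against 5.29, 3.80 and 4.12 CPM at 0 h (log2 -0.91 ± 0.23, adjusted p = 0.00197). The Col-0 libraries had 2.18, 1.74 and 2.73 CPM at 24 h, against 4.91, 4.20 and 3.6 CPM at 0 h (log2 -0.94 ± 0.24, adjusted p = 0.00224). It also fell in shr (log2 -0.72 ± 0.23, adjusted p = 0.0167), a call lost without shr 0 h replicate 1, shr 0 h replicate 2, shr 24 h replicate 1 or shr 24 h replicate 3 (adjusted p up to 0.102). GH3.6 (AT5G54510), known as DFL1, was called in no stress response, with log2 changes between -0.34 and 0.25. It measured 17.7, 24.2 and 27.0 CPM in cat2shr at 24 h, against 22.3, 23.7 and 22.6 CPM at 0 h, and 32.9, 23.1 and 33.1 CPM in Col-0, against 28.5, 25.4 and 20.9 CPM.

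Before stress, members were mostly lower in the mutants where they differed. In shr 4 of 30 members were higher and 11 lower than in Col-0, where 21.3% and 24.1% of all genes were (45.3% together). In cat2 1 was higher and 8 were lower (11.5% and 11.8% of all genes, 23.3% together). In cat2shr 2 were higher and 11 lower than in cat2 (17.2% and 17.8%, 34.9% together), and 2 were lower than in shr (1.59%, or 3.03% with those higher, 1.44%), whereas none was higher than in shr by edgeR, by DESeq2 or at an unadjusted p under 0.05. The median member differed by -0.26, -0.16, -0.29 and -0.19 on the log2 scale in these 4 comparisons, where the medians of all genes lay between -0.03 and 0.00482. The cat2 count rested on small differences: it was 3 without Col-0 0 h replicate 1, 2 or 3 or without cat2 0 h replicate 3, and 2 without cat2 0 h replicate 2, and with scaling by library size only 3 members were higher and 2 lower. The shr count of 15 was 9 without Col-0 0 h replicate 3, and the count of 13 for cat2shr against cat2 was 8 without cat2 0 h replicate 2 or cat2shr 0 h replicate 1 and 7 without cat2 0 h replicate 3. The count of 2 against shr was 1 without shr 0 h replicate 1, shr 0 h replicate 2 or cat2shr 0 h replicate 2, and 0 in a fit of these groups only.

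IAA29 (AT4G32280), an Aux/IAA gene known for its response to shade and light, differed most at 0 h. It measured 1.01, 1.56 and 1.44 CPM in cat2shr, 3.02, 3.64 and 1.74 CPM in shr and 3.92, 1.89 and 3.1 CPM in cat2, against 11, 14.6 and 17.1 CPM in Col-0. No mutant library reached the lowest Col-0 library. The log2 difference from Col-0 was -2.34 ± 0.34 in shr (adjusted p = 2.23e-05) and -2.26 ± 0.34 in cat2 (adjusted p = 1.30e-04). At 24 h IAA29 measured 0.291, 0.794 and 0.429 CPM in cat2shr, 2.80, 2.61 and 1.96 CPM in shr and 2.03, 0.991 and 2.65 CPM in cat2, against 8.07, 4.96 and 6.71 CPM in Col-0. It was lowest in cat2shr, below cat2 (log2 -1.93 ± 0.42, adjusted p = 7.37e-04) and below shr (log2 -2.29 ± 0.42, adjusted p = 1.27e-04). It fell under stress in cat2shr (log2 -1.41 ± 0.44, adjusted p = 0.00871) and Col-0 (log2 -1.11 ± 0.32, adjusted p = 0.00568).

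IAA8, IAA14 and IAA19, which fell under stress, were also lower in mutants at 0 h. IAA19 was lower in cat2shr than in shr (log2 -0.78 ± 0.15, adjusted p = 0.00849) and than in cat2 (log2 -1.30 ± 0.15, adjusted p = 3.99e-06), and lower in shr than in Col-0 (log2 -0.93 ± 0.15, adjusted p = 5.24e-05). IAA14 measured 8.66, 7.36 and 6.32 CPM in cat2shr, 14.0, 13.0 and 9.56 CPM in shr and 11.8, 11.1 and 10.3 CPM in cat2, against 18.4, 23.3 and 18.8 CPM in Col-0. Its order was cat2shr below cat2 and shr, which overlapped, and these below Col-0. IAA14 was lower in cat2shr than in shr (log2 -0.71 ± 0.16, adjusted p = 0.0202), a call lost without shr 0 h replicate 1, shr 0 h replicate 2, cat2shr 0 h replicate 2 or cat2shr 0 h replicate 3 (adjusted p up to 0.296), and lower in cat2 than in Col-0 (log2 -0.86 ± 0.16, adjusted p = 6.31e-04). IAA8 was lower in shr against Col-0 (log2 -0.57 ± 0.06, adjusted p = 2.32e-07) and lower in cat2shr than in cat2 (log2 -0.41 ± 0.06, adjusted p = 1.98e-05). IAA2, which was not among the genes that fell under stress, measured 39.0, 46.7 and 46.5 CPM in cat2shr, against 72.1, 75.4 and 64.4 CPM in cat2 (log2 -0.68 ± 0.14, adjusted p = 8.55e-04), and 39.4, 45.8 and 32.7 CPM in shr, against 50.6, 59.7 and 70.4 CPM in Col-0 (log2 -0.62 ± 0.14, adjusted p = 0.00133). For IAA2 both lines with shr were thus below their counterpart with a working SHR gene at 0 h, without overlap.

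The members higher at 0 h were few. GH3.5 measured 7.67, 11.2 and 14.6 CPM in shr, against 7.62, 5.64 and 5.54 CPM in Col-0 (log2 0.83 ± 0.21, adjusted p = 0.00351). In cat2shr it was higher than in cat2 (log2 0.60 ± 0.21, adjusted p = 0.0312), a call lost without cat2 0 h replicate 2, cat2 0 h replicate 3, cat2shr 0 h replicate 2 or cat2shr 0 h replicate 3 (adjusted p up to 0.162). GH3.17 was the other member higher in cat2shr than in cat2 at 0 h (5.29, 3.80 and 4.12 CPM, against 3.79, 2.36 and 1.92 CPM, log2 0.71 ± 0.23, adjusted p = 0.0227), a call lost without cat2 0 h replicate 2, cat2 0 h replicate 3 or cat2shr 0 h replicate 1 (adjusted p up to 0.115). GH3.5 started higher in shr at 0 h and ended lower at 24 h than in Col-0. IAA26 was higher in cat2 than in Col-0 (37.7, 44.5 and 42.6 CPM, against 27.5, 30.8 and 30.3 CPM, log2 0.49 ± 0.14, adjusted p = 0.0143), a call lost without cat2 0 h replicate 2 (adjusted p = 0.0537). IAA11 was slightly higher in shr than in Col-0 (log2 0.26 ± 0.10, adjusted p = 0.0394), a call lost without Col-0 0 h replicate 1, Col-0 0 h replicate 3 or shr 0 h replicate 3. GH3.2 and GH3.3 were also called higher in shr (log2 1.87 ± 0.73 and 1.46 ± 0.53), and both calls rested on single libraries: without shr 0 h replicate 2, the highest, or without any one of the 3 Col-0 0 h libraries, neither was called, and GH3.2 was not called without shr 0 h replicate 3 either.

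**Figure D5:**
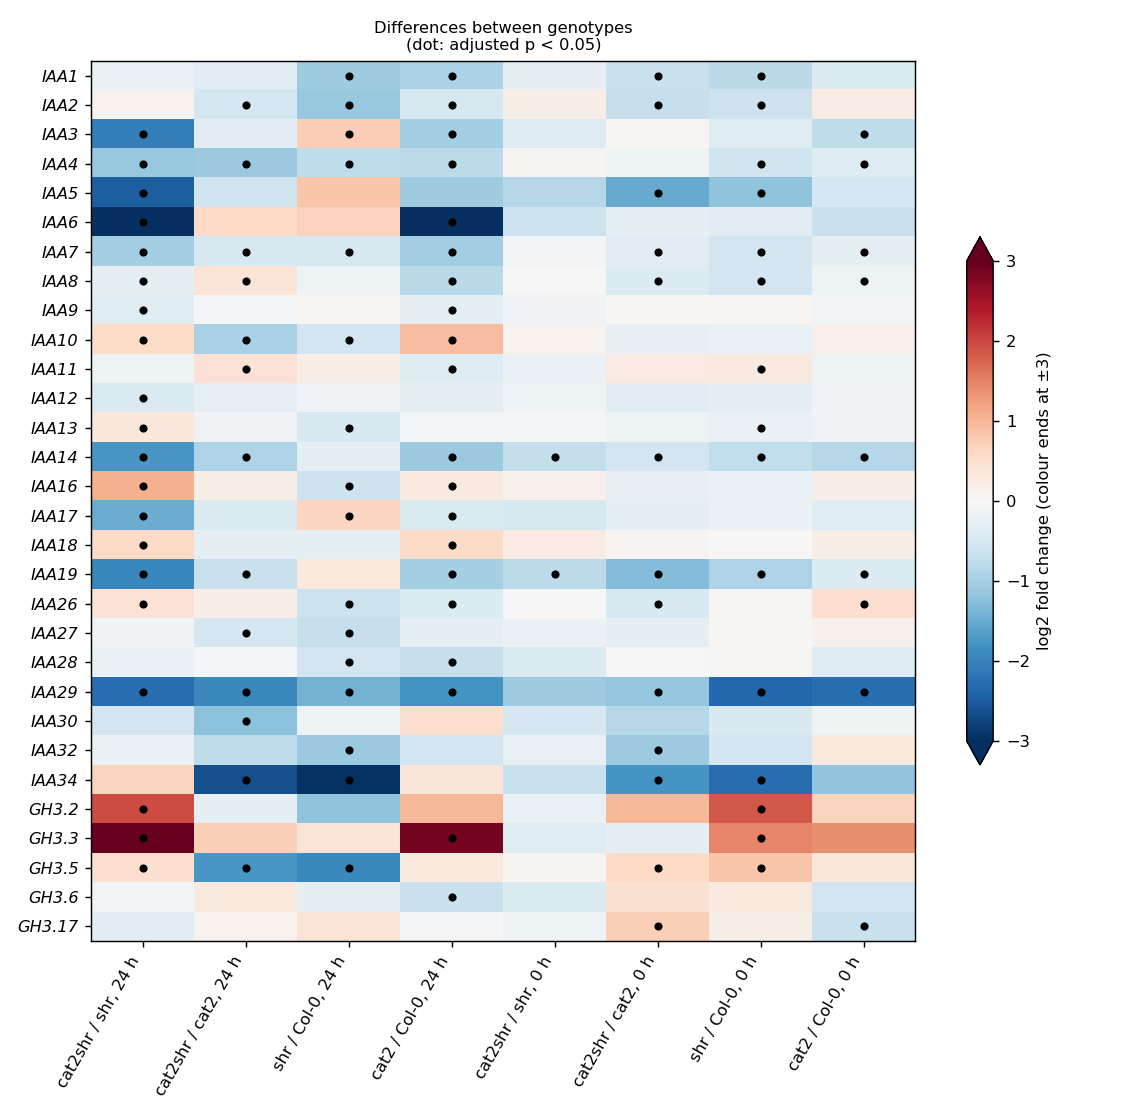
Log2 difference between genotypes for the 30 tested members at 24 h (left 4 columns) and at 0 h (right 4 columns), with colour ending at 3 in either direction and a dot where the adjusted p was under 0.05. Most dots lie on lower values, and the column of cat2shr over shr at 0 h has 2 dots, on IAA14 and IAA19.

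At 24 h more members differed than at 0 h for cat2 against Col-0 (20, against 9) and for cat2shr against shr (20, against 2). For shr against Col-0 the count was 16, against 15 at 0 h, and for cat2shr against cat2 it was 13 at both times. The share of all genes called was higher at 24 h in each of these comparisons. In cat2 4 members were higher and 16 lower than in Col-0 (31.4% and 32.7% of all genes, 64.1% together), and in shr 2 were higher and 14 lower (25.8% and 26.9%, 52.7% together). In cat2shr 2 were higher and 11 lower than in cat2 (27% and 28.1%, 55.1% together), and 8 were higher and 12 lower than in shr (27.3% and 27.9%, 55.2% together). With scaling by library size only the last split was 5 higher and 13 lower. The median member differed by -0.42, -0.38, -0.31 and -0.20 on the log2 scale in these comparisons, where the medians of all genes lay between -0.03 and -0.00155.

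IAA7 and IAA4 were among the genes with the smallest p at 24 h. IAA7 measured 69.0, 64.5 and 73.2 CPM in cat2shr and 134, 138 and 150 CPM in shr (log2 -1.03 ± 0.10, adjusted p = 1.59e-07). It measured 96.6, 90.7 and 100 CPM in cat2 and 189, 190 and 213 CPM in Col-0 (log2 -1.04 ± 0.10, adjusted p = 3.08e-08). No library of a line with the cat2 mutation reached the level of its counterpart with CAT2. IAA4 measured 24.4, 26.4 and 24.1 CPM in cat2shr, 53.3, 61.6 and 49.5 CPM in shr and 51.3, 44.5 and 66.2 CPM in cat2, against 88.3, 85.6 and 105 CPM in Col-0. It was lower in cat2shr than in cat2 (log2 -1.12 ± 0.12, adjusted p = 3.23e-07) and lower in shr than in Col-0 (log2 -0.76 ± 0.12, adjusted p = 3.10e-05). IAA4 in shr and cat2 overlapped, between the other groups.

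Both lines with shr lacked the high IAA2 and GH3.5 levels of stressed Col-0. Stressed cat2 had the high GH3.5 level, but for IAA2 it too stood below Col-0 without overlap (74.5, 68.4 and 83.1 CPM). IAA2 measured 44.1, 62.9 and 49.2 CPM in cat2shr and 51.0, 47.8 and 45.3 CPM in shr at 24 h, against 109, 108 and 97.6 CPM in Col-0 (log2 -1.13 ± 0.14 for shr, adjusted p = 1.50e-06). GH3.5 was reduced in shr relative to Col-0 (log2 -1.94 ± 0.21, adjusted p = 2.72e-07) and lower in cat2shr than in cat2 (log2 -1.75 ± 0.20, adjusted p = 6.03e-07). IAA3 and IAA17 went the other way and at 24 h stood higher in shr than they did in Col-0 (log2 0.74 ± 0.26 and 0.65 ± 0.18, adjusted p = 0.0224 and 0.0043). The IAA3 call was lost without Col-0 24 h replicate 2, Col-0 24 h replicate 3 or shr 24 h replicate 2, with adjusted p up to 0.0705.

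Between cat2shr and cat2 at 24 h, IAA8 was higher in cat2shr (log2 0.40 ± 0.06, adjusted p = 6.23e-06), as was IAA11 (14.1, 15.5 and 15.1 CPM, against 11.4, 9.12 and 12.9 CPM, log2 0.42 ± 0.10, adjusted p = 0.00151). IAA10 was lower in cat2shr than in cat2 (log2 -0.97 ± 0.13, adjusted p = 5.08e-06). At 24 h the mean levels of IAA8, IAA10 and IAA11 thus lay closer to Col-0 in cat2shr than in cat2, whereas those of IAA4, IAA7, IAA14 and IAA29 lay further from it. Between cat2shr and shr, IAA16 (log2 1.08 ± 0.11, adjusted p = 3.56e-07), GH3.3 (log2 3.21 ± 0.52, adjusted p = 5.35e-05) and IAA18 (log2 0.57 ± 0.14, adjusted p = 0.00189) were higher in cat2shr. IAA19 (log2 -1.95 ± 0.20, adjusted p = 2.09e-07) and IAA14 (log2 -1.74 ± 0.18, adjusted p = 2.48e-07) were lower. GH3.3 was also higher in cat2 than in Col-0 (log2 2.88 ± 0.53, adjusted p = 1.36e-04), so it stood high in both stressed lines that carry cat2. GH3.6 had its single call here, lower in cat2 than in Col-0 (17.1, 17.5 and 21.5 CPM, against 32.9, 23.1 and 33.1 CPM, log2 -0.67 ± 0.21, adjusted p = 0.00939).

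The stress responses themselves differed between genotypes for 37 pairs of a member and a comparison. The response of cat2 was higher than that of Col-0 for 1 member and lower for 5 (18.8% and 19.4% of all genes, 38.2% together). The response of shr was higher than that of Col-0 for 5 members and lower for 4 (12.6% and 13.1%, 25.7% together). The response of cat2shr was higher than that of cat2 for 3 and lower for 3 (15.6% and 15.4%, 30.9% together), and against that of shr it was higher for 3 and lower for 9 (17.5% and 17.8%, 35.3% together), or for 2 and 12 with scaling by library size only. The first count, 6 in all, was 10 without cat2 0 h replicate 3 and 12 without cat2 24 h replicate 3. Where the response of cat2shr was below that of shr, all 9 members were Aux/IAA genes, among them IAA3, IAA14, IAA17 and IAA19, and it was above that of shr for IAA13, IAA16 and GH3.3. IAA13 was lost there without shr 0 h replicate 1, shr 24 h replicate 3 or cat2shr 24 h replicate 2, with adjusted p up to 0.41 over the alternatives. These comparisons share groups, so the counts are not independent of each other.

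Other genes of the auxin pathway were counted by list. SAUR growth genes, small auxin-induced genes of cell expansion, fell for 15 of 16 genes in cat2shr, 12 in shr, 15 in cat2 and 15 in Col-0, beside the 31.7%, 20.9%, 36.3% and 29.6% of all genes given above, with median log2 changes of -2.93, -0.82, -2.78 and -2.08, and 1 gene rose in cat2shr and 1 in Col-0. SAUR20 measured 0.979, 0.970 and 1.15 CPM in cat2shr at 24 h, against 7.01, 8.51 and 8.96 CPM at 0 h, and 2.90, 4.25 and 3.96 CPM in shr, against 7.61, 10.9 and 11.1 CPM. In shr the SAUR genes thus kept more of their 0 h level. The SAUR response of shr was higher than that of Col-0 for 12 of 16 genes (12.6% of all genes), and the response of cat2shr was lower than that of shr for 13 (17.8%). SAUR19 to SAUR24 are near-identical copies, so reads may be split among them and single values are uncertain.

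The shares that follow stand beside the 31.7%, 20.9%, 36.3% and 29.6% of all genes that fell in cat2shr, shr, cat2 and Col-0, and the 32.7%, 20.4%, 38.7% and 29.7% that rose. Of 6 receptor genes, 5 fell in cat2shr (83.3%), 5 in shr (83.3%), 3 in cat2 (50%) and 4 in Col-0 (66.7%). AFB2 rose in cat2 (62.3, 66.2 and 57.8 CPM at 24 h, against 41.8, 40.7 and 41.9 CPM at 0 h, log2 0.58 ± 0.06), and AFB5 rose in Col-0 (log2 0.30 ± 0.07). Of 15 ARF genes, 5 fell in cat2shr (33.3%, near the share of all genes), 6 in shr (40%), 8 in cat2 (53.3%) and 9 in Col-0 (60%), while 1 rose in cat2shr, 3 in cat2 and 2 in Col-0. ARF3 measured 16.2, 18.5 and 16.8 CPM in cat2shr at 24 h, against 44.2, 37.7 and 30.5 CPM at 0 h. Of 13 transport genes, 9 fell in cat2shr (69.2%), 7 in shr (53.8%), 10 in cat2 (76.9%) and 7 in Col-0 (53.8%), while 1 rose in cat2shr and 1 in shr. Among those that fell were the efflux carriers ABCB19 (59.6, 54.4 and 71.2 CPM in cat2 at 24 h, against 190, 180 and 175 CPM at 0 h) and PIN4 (38.4, 35.7 and 36.0 CPM in cat2shr at 24 h, against 130, 98.6 and 83.1 CPM at 0 h). Of 8 synthesis genes of the TAA and YUC families, 2 fell and 2 rose in cat2shr (25% each, under the shares of all genes), and 3 fell in shr (37.5%), 5 in cat2 (62.5%) and 6 in Col-0 (75%). Of 7 inactivation genes outside the GH3 family, 4 rose in cat2shr (57.1%), 2 in shr (28.6%), 2 in cat2 (28.6%, under the share of all genes) and 3 in Col-0 (42.9%), while 1 fell in shr and 1 in cat2. DAO1, which oxidises auxin, measured 94.9, 105 and 79.2 CPM in cat2shr at 24 h, against 9.92, 24.6 and 17.7 CPM at 0 h (log2 2.42 ± 0.27), and 29.9, 29.8 and 23.9 CPM in shr, against 10.6, 16.0 and 11.2 CPM (log2 1.14 ± 0.27). Of 4 other GH3 genes, 1 fell and 1 rose in cat2shr (25% each, under the shares of all genes). In shr, cat2 and Col-0, 2 of them fell (50% in each) and none rose. GH3.9 fell in all 4 genotypes (log2 -2.18 ± 0.23, -1.22 ± 0.21, -2.54 ± 0.23 and -2.69 ± 0.23 in cat2shr, shr, cat2 and Col-0).

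The leaf marker sum was lower at 24 h in every genotype, and other marker sums moved in some of them. The leaf marker sum was 9013 to 11420 CPM in cat2shr at 24 h, against 15400 to 19960 CPM at 0 h, 12360 to 17090 CPM in shr, against 20510 to 22120 CPM, 6147 to 8155 CPM in cat2, against 13770 to 15380 CPM, and 10380 to 15090 CPM in Col-0, against 20320 to 20900 CPM. The vascular marker sum of 5 genes was 183.9 to 225.9 CPM in cat2shr at 24 h, against 212.9 to 279.8 CPM at 0 h, which overlapped. It was 171.1 to 205.5 CPM in shr, against 290.7 to 362 CPM, 149.1 to 168.7 CPM in cat2, against 201.1 to 225.6 CPM, and 151.2 to 157.5 CPM in Col-0, against 253.8 to 321.9 CPM, with no overlap in these 3 genotypes. The 7 floral organ markers summed to 3.049 to 9.155 CPM in cat2 at 24 h, against 1.107 to 1.787 CPM at 0 h, and 4 of the 6 that could be tested rose there (66.7%, against 38.7% of all genes). Their sums overlapped between the times in cat2shr (1.26 to 1.773 CPM at 24 h, against 1.622 to 2.472 CPM at 0 h), in shr (1.335 to 1.92 CPM, against 1.63 to 1.764 CPM) and in Col-0 (3.368 to 4.577 CPM, against 1.318 to 5.291 CPM). Of 5 shoot meristem markers, 2 could be tested, and both rose in cat2 (STM log2 2.21 ± 0.79, adjusted p = 0.0173) and were called in no other genotype. The meristem marker sum in cat2 overlapped between the times (1.894 to 4.885 CPM at 24 h, against 0.3198 to 2.146 CPM at 0 h). The part of these shifts in the changes of Aux/IAA and GH3 genes was not tested.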

How the data were processed

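Shoot RNA was extracted with TRIzol and RNeasy columns and made into libraries with the TruSeq Stranded mRNA kit, per the labels' protocols. The authors deposited raw read counts per locus for 24 libraries. The submitters' processing notes name Trim Galore 0.3.3, TopHat2 2.1.0, featureCounts of Subread 1.4.6 and the build TAIR10; the sources used here give no order, parameters, annotation or strand setting. From these counts, 20347 of 33602 loci passed edgeR's filterByExpr with a minimum count of 10. They were scaled by TMM and fitted with edgeR 4.0.16 (robust quasi-likelihood, R 4.3.3), with 1 mean for each of the 8 groups and all 24 libraries sharing the spread, which gave a common dispersion of 0.0195. The 17 contrasts were adjusted by Benjamini-Hochberg over all tested genes, with a threshold of 0.05. CPM values are TMM-scaled counts per 1000000. A standard error is the size of the log2 change divided by the square root of the F statistic. Ranges and counting intervals of low counts cover counting error only.

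The members, the gene lists and the tests were chosen with earlier results of these data known. Values per library were given for up to 3 members higher and 3 lower with the smallest adjusted p in each comparison, and further members were described to account for all 35. No tested member was without a call in every comparison. Of the other auxin genes, those with the smallest adjusted p of their list in a stress response were named where a value is given. AFB5 was an exception, named as the receptor gene called higher in Col-0, where AFB4, called lower, had the smallest adjusted p. Nothing states that replicates came from separate cultures, so the p-values measure the spread between these samples, which may be technical. No library pair of a group agreed within sampling noise (lowest chi-square per degree of freedom 9.44). Counts were also simulated for the stress response in cat2, on 20038 genes with 100 changed 4-fold and 100 changed 2-fold. Of these, 96% and 72% were recovered, with 7 false calls. In the data 75% of genes were called in this response, so the adjusted threshold was stricter in the simulation. The simulated shares therefore do not give the recovery in the data. Coordinates and sequences were read from the RefSeq TAIR10.1 assembly, in which all 35 members were matched by locus identifier. Alternatives were RLE scaling, library size only, no filter, at least 5 CPM in 3 libraries, a replicate block, a fit of only the groups compared, DESeq2 1.42.0 and leaving out each library in turn. A further alternative, chosen after the libraries were seen, left out shr 0 h replicate 1 and cat2shr 0 h replicate 1 together.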

Additional observations from a re-analysis of the deposited data

Results flagged for a closer look

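The stress responses of pairs of genotypes differed, by an interaction term in edgeR's quasi-likelihood model with adjustment over all tested genes, for the members that follow. Values are differences of log2 responses, in the order named.

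For cat2 minus Col-0 they were -0.7583 for IAA7, -0.7076 for IAA2, -0.6445 for IAA8, -0.9038 for IAA26 and 0.7832 for IAA10. IAA6 differed by -2.633 with an adjusted p of 0.0494, on very few counts in cat2 at 24 h, and this call was lost in 7 of 12 fits without 1 library: Col-0 0 h replicates 1 and 2, cat2 0 h replicate 1, Col-0 24 h replicates 1 and 2, and cat2 24 h replicates 1 and 2. For shr minus Col-0 the falling genes IAA3, IAA8, IAA17 and IAA19 differed by 1.096, 0.4549, 0.8224 and 1.218, and IAA5 by 2.019. The IAA3 difference was lost in 8 of 12 fits without 1 library (Col-0 0 h replicates 1 and 2, shr 0 h replicates 2 and 3, Col-0 24 h replicates 2 and 3, and shr 24 h replicates 1 and 2), with adjusted p up to 0.0740. IAA26 and IAA27 differed by -0.6945 and -0.7186, GH3.2 by -3.085 and GH3.5 by -2.778. IAA27 was lost without Col-0 0 h replicate 3, shr 0 h replicate 1, Col-0 24 h replicate 1 or shr 24 h replicate 3.

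For cat2shr minus cat2 the differences were 0.8167 for IAA8, 0.648 for IAA26, -0.9852 for IAA4, -0.7167 for IAA10 and -2.352 for GH3.5. IAA16 differed by 0.4279 with an adjusted p of 0.0473, a call lost in 8 of 12 fits without 1 library (all but cat2 0 h replicates 1 and 3, cat2shr 0 h replicate 2 and cat2shr 24 h replicate 3). For cat2shr minus shr 9 Aux/IAA genes had lower responses: IAA3 by -1.692, IAA4 by -1.214, IAA6 by -2.753, IAA7 by -0.9577, IAA8 by -0.2827, IAA9 by -0.2769, IAA14 by -1.031, IAA17 by -1.003 and IAA19 by -1.168. Higher responses were 0.3608 for IAA13, 0.9385 for IAA16 and 3.568 for GH3.3. In the three-way interaction the values were 1.343 for IAA26, 0.8529 for IAA16, 0.3618 for IAA8 and -0.8128 for IAA4.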

How the results depend on the processing

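Of 214 pairs of a member and a contrast that were called, 157 were called in every alternative and every fit without 1 library that tested the member. None changed direction. A pair was left out of an alternative whose filter its member failed, such as at least 5 CPM in 3 libraries. Among the tested values, 205 were lost in fits without 1 library and 80 under the other alternatives, and DESeq2 called 9 further pairs. The number of members that differed between cat2 and Col-0 at 0 h was 9, and it was 5 with RLE scaling, 5 with library size only, 5 with no filter, and 2 to 6 without 1 library. For cat2shr against shr at 0 h it was 2, and 0 in a fit of only those groups, where 0 is a count by edgeR, and 1 to 3 without 1 library. For cat2shr against cat2 at 0 h it was 13, and 8 when shr 0 h replicate 1 and cat2shr 0 h replicate 1 were left out, and 7 to 13 without 1 library. Without 1 library the count was 9 to 15 for shr against Col-0 at 0 h, where it was 16 with shr 0 h replicate 1 and cat2shr 0 h replicate 1 left out, and 5 to 12 for the response of cat2 minus Col-0. The cause of these shifts was not tested. Correlations of the deviations of same-numbered replicates ran from -0.132 to 0.368 over the 12 comparisons of 2 groups, and in none of these were all 3 over 0.1, so the numbers were not taken to pair the samples. With the replicate block 20, 10, 20 and 21 members were called in the stress responses of cat2shr, shr, cat2 and Col-0, and 10, 15, 13 and 2 at 0 h where cat2 or shr was set against Col-0 and cat2shr against cat2 or shr. In the same order of comparisons, it gave 20, 17, 14 and 19 at 24 h, 5, 10, 6 and 13 for the differences of responses, and 5 for the three-way interaction. Library size only moved the median of all genes away from its TMM value by over 0.1 on the log2 scale in 7 of 17 contrasts, with the largest moves of -0.185 for cat2shr against shr at 24 h and -0.234 for the response of cat2shr minus shr. For cat2 minus Col-0, a fit of only those groups gave 4 higher and 4 lower, and for shr minus Col-0 it gave 5 and 7. The fit of only the groups compared was not run for the three-way interaction, which uses all groups. Low counts limit IAA6, IAA30 and IAA34, and the 5 members not tested.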
